A study of Mus musculus with 6 samples.

Results

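Club cells are the secretory cells of the conducting airways, and 9 genes that mark them were followed in cultured airway basal cells of the mouse. The genes were chosen by symbol from the deposited table of 56748 genes: the secretoglobins Scgb1a1, Scgb3a1 and Scgb3a2, the metabolic enzymes Cyp2f2 and Cbr2, the surface proteins Lypd2, Msln and Pigr, and the secretory folding protein Agr2. All 9 were found, and 7 of them were among the 15704 genes abundant enough to be tested, that is, with a mean over the 6 libraries of no less than 10 normalized counts. Scgb3a1 and Scgb3a2 fell below that minimum and are given as reads without a test. A normalized count is a gene's read count divided by a size factor for its library.

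RNA was sequenced from primary basal stem cells of wild-type mouse trachea after 4 days in culture. For 3 libraries the cultures held UK-5099, which blocks the carrier that brings pyruvate into mitochondria. The remaining 3 libraries came from cultures with Y-27632 plus A8301 and DMH-1. Of these, A8301 and DMH-1 inhibit the type I receptors of TGF-beta and BMP, a pairing known as dual SMAD inhibition. All cultures were wild type, and the labels give neither the age or sex of the mice, nor whether the replicates came from separate animals, nor whether Y-27632 was also present with UK-5099. The p-values therefore cover only the spread among these samples, and that spread may be technical. There was no untreated group, so a difference does not tell under which of the inhibitor conditions a gene moved.

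Club cells arise from basal cells during growth and repair of the airway, and signalling through Notch receptors favours the secretory over the multiciliated fate. They are known for secreted host-defence proteins, of which Scgb1a1 is the classic example, and for enzymes that metabolise inhaled chemicals. In the mouse trachea they lie among basal, multiciliated and rarer cells, and goblet cells share much of their secretory machinery.

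The libraries held between 19909589 and 27037795 gene reads. The basal identity given in the labels was checked on Krt5, Krt14, Krt15 and Trp63, all of which were abundant in every library, with Krt5 at 118708 ± 7085 normalized counts in the UK-5099 group against 39445 ± 2455 in the 3-inhibitor group (SD over 3 libraries). Genes linked to sex moved with the groups too, and were picked for this once their values were known: Xist was at 24276 ± 1528 and 14246 ± 129 normalized counts and the Y-linked gene Ddx3y at 422 ± 13.0 and 745 ± 34.6. Their part in the differences below was not tested.

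The comparison asked how club cell marker expression differed between basal cells expanded with UK-5099 and those expanded with the 3 inhibitors. All 7 markers that could be tested were lower with UK-5099, and in each the highest UK-5099 library lay below the lowest 3-inhibitor library. Of all genes tested, 53.8% were called in either direction and 26.6% were called lower (limma, Benjamini-Hochberg adjusted p under 0.05). In 30.1% of them the UK-5099 libraries lay wholly below the others, and in 30.7% wholly above, as for none of the 7 markers. The same 6 of the 7 markers were lower by at least 2-fold and by at least 3-fold, against 5.48% and 2.7% of all genes tested. The median log2 fold change of the 7 was -2.17, beside 0.00 for all genes tested. Cbr2 differed most, at 7.0-fold, and Msln least, at 1.57-fold. These are bulk samples, in which fewer cells of a type and less RNA per cell cannot be told apart.

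**Figure D1:**
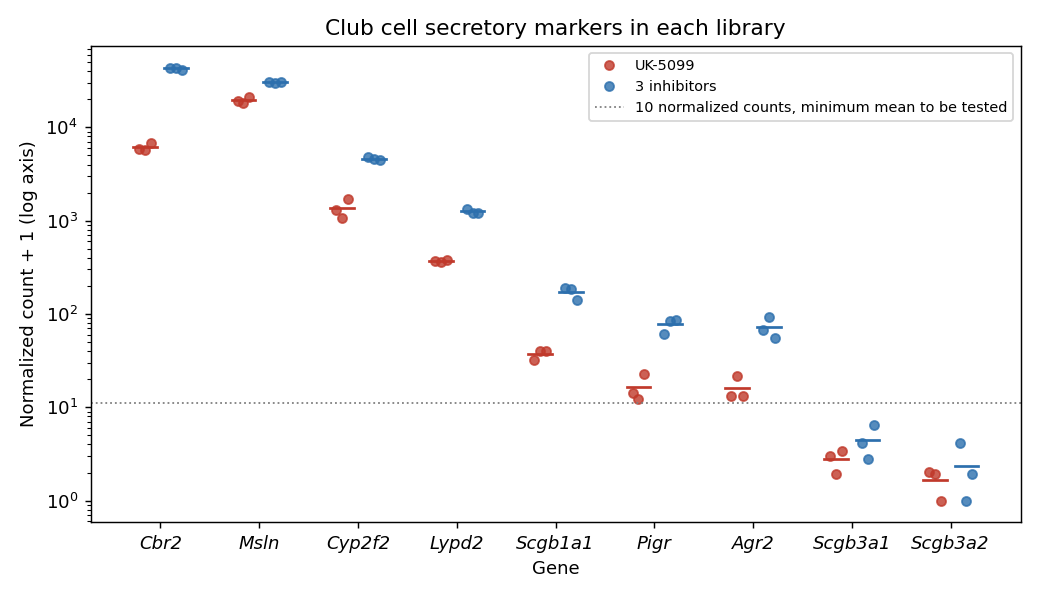
Normalized count plus 1 (log axis) of the 9 markers in each library; points are libraries, red for UK-5099 and blue for the 3 inhibitors, short bars are means of 3, and the dotted line marks 10 normalized counts, the smallest mean that was tested. For Cbr2, Msln, Cyp2f2, Lypd2, Scgb1a1, Pigr and Agr2 the red and blue points do not overlap, whereas those of Scgb3a1 and Scgb3a2 overlap near the floor.

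Start-site windows were available for 5 of the markers, Pigr, Cyp2f2, Scgb3a1, Cbr2 and Agr2, in RefSeq's annotation of GRCm38.p6, a build other than the GRCm39 named for the deposited counts. Those of the 4 tested markers among them are shown because these genes were lower together. Each window runs 5′ to 3′ on the strand of the gene, from 250 bases before the annotated start to 50 after it. The windows are chr11:120731972-120732271 on the minus strand, chr7:27119705-27120004 on the plus strand, chr1:130826434-130826733 on the plus strand and chr12:35992675-35992974 on the plus strand. Capitals mark matches to the motifs searched, on either strand.
Cbr2: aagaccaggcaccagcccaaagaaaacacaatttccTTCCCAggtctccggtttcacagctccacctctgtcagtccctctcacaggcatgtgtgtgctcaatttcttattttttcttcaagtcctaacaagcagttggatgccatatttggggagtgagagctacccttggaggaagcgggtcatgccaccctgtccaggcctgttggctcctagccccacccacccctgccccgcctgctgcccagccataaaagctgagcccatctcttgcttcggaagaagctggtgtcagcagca
Cyp2f2: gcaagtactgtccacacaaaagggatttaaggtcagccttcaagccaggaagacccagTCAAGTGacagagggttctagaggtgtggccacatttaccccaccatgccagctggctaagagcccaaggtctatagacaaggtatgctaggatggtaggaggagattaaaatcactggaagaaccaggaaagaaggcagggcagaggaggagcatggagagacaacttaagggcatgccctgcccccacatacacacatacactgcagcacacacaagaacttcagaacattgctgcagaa
Pigr: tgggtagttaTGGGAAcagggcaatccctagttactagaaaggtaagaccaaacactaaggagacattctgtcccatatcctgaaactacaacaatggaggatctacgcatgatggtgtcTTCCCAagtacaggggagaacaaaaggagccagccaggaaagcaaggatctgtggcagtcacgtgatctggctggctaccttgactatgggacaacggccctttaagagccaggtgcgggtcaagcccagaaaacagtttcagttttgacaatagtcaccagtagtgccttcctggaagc
Agr2: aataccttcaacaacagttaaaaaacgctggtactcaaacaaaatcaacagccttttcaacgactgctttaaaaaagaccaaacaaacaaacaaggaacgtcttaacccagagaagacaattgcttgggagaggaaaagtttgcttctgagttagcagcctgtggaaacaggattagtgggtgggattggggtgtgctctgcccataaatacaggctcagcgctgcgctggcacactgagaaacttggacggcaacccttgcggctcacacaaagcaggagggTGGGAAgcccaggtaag

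Of 10 motifs searched, 3 had a match in a marker window: TGGGAA, bound by RBPJ, the DNA-binding partner of Notch; CACTTGA, bound by the NK2 family; and TGTTTGC, bound by forkhead factors. No match overlapped another in these windows. TGGGAA occurred in 4 of the 5 marker windows, those of Cbr2, Pigr, Agr2 and Scgb3a1, and in 25.6% of all 32851 windows of the table. In Cbr2 the match began 214 bases before the start, in Pigr 240 and 130 bases before it, and in Agr2 within the transcribed part. CACTTGA occurred in Cyp2f2, beginning 192 bases before the start, and in Scgb3a1, against 3.06% of all windows. TGTTTGC occurred in Scgb3a1 alone among the 5, against 5.07% of all windows. The other 7 motifs had no match in the 5 windows. They were the forkhead motif TGTTTAC (3.65% of all windows), the NK2 motif CACTCAA (3.35%), the SMAD motifs CAGACA (21.04%) and GTCTAGAC (0.213%), the Grainyhead motif ACCGGTT (1.02%), the stress element CCACGTC (2.42%) and the TATA box TATAAA (13.6%). A match describes the letters only and is no evidence of binding.

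Scgb1a1 encodes the main secreted protein of club cells. It stood at 31.5, 39.0 and 39.0 normalized counts in UK-5099 replicates 1 to 3 and at 189.7, 184.1 and 138.9 in the 3-inhibitor replicates. The groups were well apart, although the values rest on 31 to 42 reads in the UK-5099 libraries and 152 to 206 in the others. Its log2 fold change was -2.19 ± 0.17 (SE), a 4.56-fold lower level with UK-5099 (limma, adjusted p = 9.83e-07).

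The other secretoglobins of the airway were barely detected. Scgb3a1, a secreted protein of upper airway secretory cells, had 2, 1 and 2 reads in the UK-5099 libraries and 3, 2 and 6 in the 3-inhibitor libraries. Scgb3a2, a secretoglobin of the conducting airways, had 1, 1 and 0 reads against 3, 0 and 1. The libraries overlapped for both genes, and no difference was detectable at this depth, where 3 reads of a library correspond to between 0.111 and 0.151 CPM (counts scaled to the library's total reads). Of 15 further secretoglobin genes of the Scgb1b, Scgb1c, Scgb2a and Scgb2b families none reached the minimum for testing, and 11 had no read in any library.

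Cbr2, a carbonyl reductase abundant in mouse club cells, stood at 5910.1, 5694 and 6845 normalized counts in the UK-5099 libraries and at 43733, 43444 and 41531 in the 3-inhibitor libraries. Both groups were tight beside the gap between them. The log2 fold change was -2.81 ± 0.06 (SE; limma, adjusted p = 5.65e-11), and 156 of the 15704 genes tested, Cbr2 included, had a log2 fold change at least that low.

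Cyp2f2 encodes a cytochrome P450 known for activating naphthalene in club cells. Its values were 1298, 1064 and 1688 normalized counts with UK-5099 and 4770.3, 4568 and 4446 with the 3 inhibitors. UK-5099 replicate 3 was the highest of its group, and still far below every 3-inhibitor library. The log2 fold change was -1.79 ± 0.12 (SE; limma, adjusted p = 3.13e-07), a 3.46-fold lower level. In the GENCODE M21 annotation (GRCm38) the exons of Cyp2f2 overlap those of a gene on the opposite strand, Gm15883, which was at 16.3 ± 2.64 and 49.1 ± 14.8 normalized counts (SD, n = 3). The labels do not say that counting used strand, so reads of these genes cannot be told apart.

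Among the surface proteins, Lypd2, a lipid-anchored member of the Ly6 family, stood at 365.8, 361.9 and 375.1 normalized counts with UK-5099 and at 1334, 1214 and 1215 with the 3 inhibitors (log2 fold change -1.77 ± 0.06, SE; limma, adjusted p = 1.51e-09). That is a 3.40-fold lower level, close in size to that of Cyp2f2.

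Pigr, the receptor that carries polymeric immunoglobulins across the epithelium into the lumen, was scarce. Its values were 13.2, 11.1 and 21.9 normalized counts with UK-5099 and 59.8, 83.1 and 85.9 with the 3 inhibitors. The log2 fold change was -2.27 ± 0.28 (SE), or 4.83-fold lower with UK-5099 (limma, adjusted p = 3.25e-05). The SE was wider than that of the abundant markers, since the UK-5099 values rest on 13, 12 and 18 reads.

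Msln encodes mesothelin, a lipid-anchored surface glycoprotein that also marks mesothelium. It was abundant in every library, at 19241, 18039 and 21412 normalized counts with UK-5099 and 30897, 30197 and 30669 with the 3 inhibitors. The groups were apart but by less than for any other marker tested, with a log2 fold change of -0.65 ± 0.06 (SE; limma, adjusted p = 2.52e-06). Msln was thus the only marker under 2-fold, and 1770 of the genes tested had a log2 fold change at least that low, where only 156 did for Cbr2. Of 8 mesothelial marker genes, Wt1, Gpm6a, Nkain4 and Rspo1 had no read in any library and Aldh1a2 was below the minimum. The other 3 were Bnc1, which basal cells also express and which was 1.98-fold higher, Lrrn4, at 2.89 ± 1.93 against 42.4 ± 12.1 normalized counts, and Upk3b, which did not pass the test. Lrrn4 was 11.9-fold lower (limma, adjusted p = 3.18e-05). The 8 summed to between 1126 and 1229 normalized counts with UK-5099 and between 664 and 674 with the 3 inhibitors, mostly from Bnc1. Without Bnc1 the sums were 89.1 to 103.5 against 106.3 to 148.0. Lrrn4 was the only gene of the list called lower, so these sums give no direction for the list as a whole. Of these genes Gpm6a, Nkain4, Rspo1, Aldh1a2 and Upk3b were named after their values were seen. Their part in the Msln difference was not tested.

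Agr2, a protein disulfide isomerase of the endoplasmic reticulum needed to make mucins, was again scarce. It stood at 12.2, 20.4 and 12.2 normalized counts with UK-5099, from 12, 22 and 10 reads, and at 66.0, 92.0 and 53.9 with the 3 inhibitors. The log2 fold change was -2.17 ± 0.28 (SE), or 4.51-fold lower (limma, adjusted p = 5.10e-05). Its relative Agr3 had no read in any library.

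**Figure D2:**
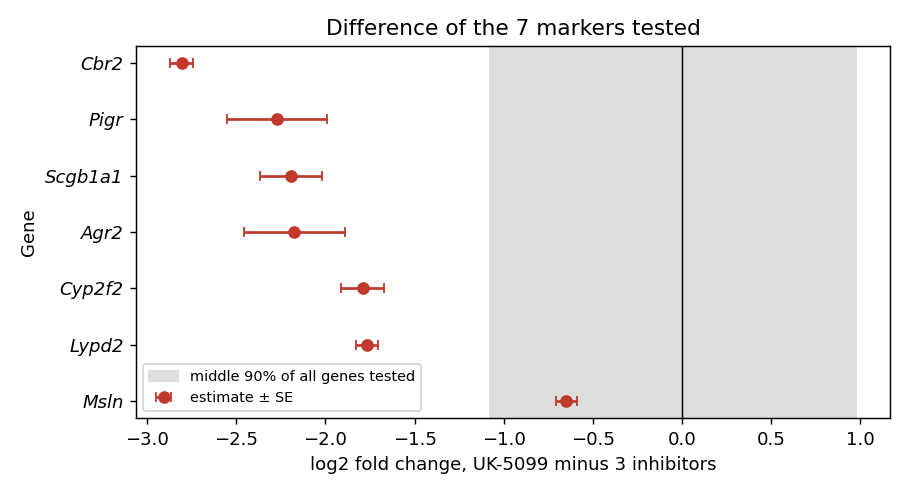
Log2 fold change (UK-5099 minus 3 inhibitors) of the 7 markers tested, as the estimate of the fit with its SE, over a grey band that holds the middle 90% of all genes tested (-1.08 to 0.98). Msln lies inside the band and the other markers lie below it.

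Together the 9 markers took 0.114 ± 0.010% of the normalized counts in the UK-5099 group against 0.330 ± 0.001% in the 3-inhibitor group (SD, n = 3; a description, with no test over the set). By library the share was 0.111%, 0.106% and 0.125% with UK-5099 and 0.332%, 0.330% and 0.329% with the 3 inhibitors. Msln and Cbr2 held most of it in every library, but in different proportions. With UK-5099, Msln gave 71.2 ± 0.64% of the markers' counts and Cbr2 22.4 ± 0.32%, whereas with the 3 inhibitors Msln gave 38.4 ± 0.74% and Cbr2 53.9 ± 0.66%. Without Msln the share was 0.0330 ± 0.0036% and 0.203 ± 0.003%, and without Msln and Cbr2 it was 0.00742 ± 0.00129% and 0.0256 ± 0.0006%. UK-5099 replicate 3 was the highest of its group for 5 of the 7 markers tested, Cyp2f2, Cbr2, Lypd2, Msln and Pigr, and was the library with the fewest reads. Without it all 7 were still called lower.

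**Figure D3:**
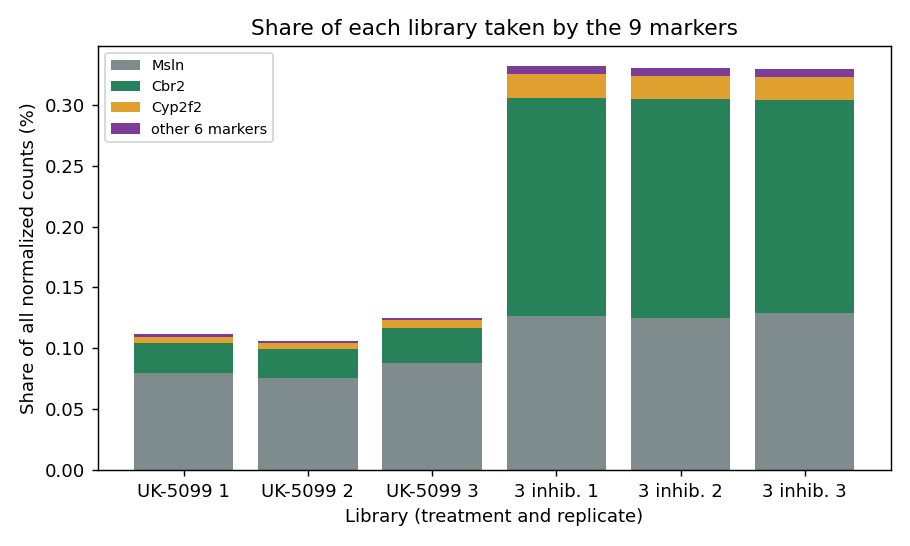
Share of all normalized counts (%) taken by the 9 markers in each library, stacked as Msln, Cbr2, Cyp2f2 and the other 6. The UK-5099 bars reach 0.106% to 0.125% and the 3-inhibitor bars 0.329% to 0.332%, and the Cbr2 segment is the one that grows most between them.

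To compare levels between genes, normalized counts were divided by exon length (GENCODE M21) and scaled to the same total per library over the 52073 genes with a length, which held 99.6% of the counts. On this length-scaled level Msln led with UK-5099, at 661 ± 74.3, followed by Cbr2 at 479.9 ± 60.1. With the 3 inhibitors Cbr2 led at 3369 ± 23.3, and Msln followed at 1041 ± 26.9 (SD, n = 3). The order of this pair was thus opposite in the groups: the length-scaled ratio of Msln to Cbr2 was 1.41, 1.37 and 1.35 in the UK-5099 libraries and 0.306, 0.301 and 0.320 in the others (two-sided exact permutation test, p = 0.1, which is as low as 3 against 3 allows). This pair was singled out after its values were seen, so the outcome of the test was known beforehand and adds no weight to the ratios.

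Below them the order was the same in both groups. Cyp2f2 came next at a length-scaled level of 69.2 ± 17.9 with UK-5099 and 236.4 ± 5.12 with the 3 inhibitors, then Lypd2 at 56.0 ± 2.42 and 192.4 ± 8.95, and Scgb1a1 at 7.93 ± 1.02 and 37.3 ± 5.37. Agr2 stood at 1.19 ± 0.36 and 5.69 ± 1.49 and Pigr at 0.399 ± 0.159 and 1.98 ± 0.40, with Scgb3a1 and Scgb3a2 last. Neighbours in this order that overlapped between libraries were Cyp2f2 and Lypd2 with UK-5099, Pigr and Scgb3a1 with UK-5099, and Scgb3a1 and Scgb3a2 with the 3 inhibitors. Scgb1a1, the gene most used to name club cells, was thus below Cbr2, Msln, Cyp2f2 and Lypd2 in every library.

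The genes outside the set whose pattern was nearest to a marker's were found by the root mean square difference of centred log2 values over the 6 libraries. With 2 groups this measure mostly reflects the difference between them, and it says nothing of shared function. For Cbr2 they were Unc5a (0.06) and Clu (0.06), the latter a secreted chaperone at 679 ± 75.04 against 5049 ± 94.0 normalized counts. For Msln they were Klf3 (0.01) and Slc12a2 (0.02), for Lypd2 Cd14 (0.05) and Tspan2 (0.05), and for Cyp2f2 Adm (0.10) and Nr3c2 (0.11). Spdye4b was nearest for both Scgb1a1 (0.12) and Agr2 (0.15), with Hgfac (0.13) and Nxph4 (0.23) next, and Pigr was nearest to Adgra3 (0.16) and Cyp4v3 (0.19). Among the markers themselves the nearest pair was Cyp2f2 and Lypd2 (0.18) and the farthest was Cbr2 and Msln (1.08).

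Other genes of club and serous secretory cells were lower in most cases, with exceptions. Of 38 listed, 28 were tested, of which 18 were lower, 4 were higher and 6 passed in neither direction. Their median log2 fold change was -0.66. The shares over all genes tested were 26.6% called lower and 27.2% called higher. Tspan1, a membrane tetraspanin, had 594.5 ± 61.0 normalized counts with UK-5099 and was 4.02-fold higher, at 2385 ± 95.1, in the 3-inhibitor group (SD, n = 3). Selenbp1, a selenium-binding protein, was 3.49-fold lower and the cytochrome P450 Cyp2s1 3.10-fold lower (limma, adjusted p from 2.68e-10 to 1.69e-09 for these 3 genes). Krt8, a keratin of luminal cells, was 1.79-fold lower. The 4 higher genes, named here after their values were seen, were the alcohol dehydrogenase Adh7 (3.12-fold), the glutathione transferases Gsta3 (1.87-fold) and Gsta4 (1.91-fold), and the aldehyde dehydrogenase Aldh1a7 (1.73-fold). Other metabolic enzymes of the list, also named after their values were seen, were lower: the carboxylesterase Ces1d by 4.82-fold, the monooxygenase Fmo2 by 4.59-fold and the cytochrome P450 Cyp2b10 by 1.60-fold. Bpifa1, a secreted airway defence protein, was below the minimum, at 4.74 ± 1.54 and 14.2 ± 4.39 normalized counts.

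Goblet cell, mucin and gland genes were mostly lower. Of 24 listed, 14 were tested, with 10 lower, 3 higher and a median log2 fold change of -1.46. Over all genes tested, 26.6% were called lower and 27.2% higher. Their summed level ranged from 5080.1 to 6846 normalized counts with UK-5099 and from 14678 to 15173 with the 3 inhibitors. Most of it came from Ltf, the lactoferrin gene, at 3221 ± 636 and 8961 ± 91.8, named after its values were seen. The membrane mucin Muc1 was 28.6-fold lower, at 28.4, 33.4 and 57.2 normalized counts against 1169, 1090.2 and 1085 (limma, adjusted p = 6.22e-09). Muc4, of the same kind, stood at 136.1, 119.7 and 205.8 normalized counts with UK-5099 and at 2117, 1819 and 1880.0 with the 3 inhibitors. Muc5b, the gel-forming mucin of secretory cells, was 3.46-fold lower at low level (8.13 ± 3.16 against 29.6 ± 5.59 normalized counts; limma, adjusted p = 0.00106), and Muc5ac was below the minimum at 3.83 ± 3.72 and 13.3 ± 4.64. Slpi, a secreted protease inhibitor, was 3.08-fold higher (limma, adjusted p = 2.08e-07). The other higher genes, named after their values were seen, were Galnt6 (2.27-fold) and Gcnt3 (1.81-fold).

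Transcription factors of secretory and airway identity moved less than the markers. Of 20 listed, 16 were tested, of which 5 were lower and 2 higher, none by 2-fold, and the median log2 fold change was -0.06. In the main fit the count of lower genes is near the share of all genes tested, 26.6%, whereas 27.2% of all genes tested were higher. Foxa1, a forkhead factor of airway epithelium, was 1.89-fold lower, at 1667, 1530.3 and 1778 normalized counts with UK-5099 and 3210, 3092 and 3097 with the 3 inhibitors. Elf3, an epithelial ETS factor, was 1.77-fold lower, Cebpd 1.86-fold and Nkx2-1, the lung lineage factor, 1.45-fold lower (limma, adjusted p from 1.09e-07 to 1.91e-05 for these 4 genes). Xbp1, a regulator of secretory capacity, did not pass the test (log2 fold change 0.06 ± 0.05, SE; adjusted p = 0.273). Spdef and Foxa2, regulators of goblet and secretory cells, were below the minimum, with means of at most 1.30 and 6.65 normalized counts. When each library was centred on its median the count was 9 lower and 1 higher. Of all 15704 genes, 5261 were then lower and 3375 higher. Without UK-5099 replicate 3 the count was 8 lower and 1 higher. The nearness to the share of all genes is thus a statement on the main fit only. Without any single 3-inhibitor replicate, 1 was higher.

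Notch pathway genes, which act on the choice of secretory fate, moved in both directions. Of 22 listed, 16 were tested, with 9 higher, 4 lower and a median log2 fold change of 0.26. Of all genes tested, 27.2% were higher and 26.6% lower, so the count of lower Notch genes is near the share of all genes. The receptors Notch1 and Notch3 were 1.73-fold and 1.97-fold higher with UK-5099, and Rbpj, the DNA-binding partner of the receptors, was 1.58-fold lower (limma, adjusted p from 4.20e-07 to 8.41e-07). Of the pathway's targets, named after their values were seen, Nrarp was 2.23-fold higher, Hey1 was 2.18-fold lower at 9.31 ± 3.37 against 20.8 ± 2.58 normalized counts, and Hes1 did not pass the test at 1674 ± 85.7 and 1698 ± 48.2 (limma, adjusted p = 2.98e-06, 0.0147 and 0.758).

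Relatives and partners of single markers moved in both directions. Of all genes tested, 27.2% were called higher and 26.6% lower, and counts from lists as short as these say little beside those shares. Of 8 other carbonyl reductases and related enzymes, 4 were higher and 2 lower. Cbr3 was 3.32-fold higher, at 1583, 1480.2 and 1414 normalized counts with UK-5099 and 418.5, 466.5 and 460.4 with the 3 inhibitors, so its groups lay apart in the direction opposite to Cbr2. Cbr1 was 1.31-fold higher and Akr1b8 2.54-fold higher, whereas Akr1b3 was 2.45-fold lower (limma, adjusted p from 2.91e-09 to 0.000285 for these 4 genes). Of 10 genes of polymeric immunoglobulins, their receptors and the cytokine receptors that induce Pigr, 7 were tested, with 3 higher and 2 lower. With each library centred on its median 4 were lower, while over all genes tested 5261 rather than 4174 were lower. Fcamr, a receptor of IgA and IgM related to Pigr, was 6.84-fold higher, at 205.2, 201.4 and 258.2 normalized counts with UK-5099 and 26.8, 34.9 and 32.9 with the 3 inhibitors (limma, adjusted p = 1.06e-07). The cytokine receptor subunit Ifngr2 was 1.66-fold lower and Il17rc 1.44-fold higher. The immunoglobulin genes Ighm and Igha and the joining chain gene Jchain, named after their values were seen, had means of at most 1.87 normalized counts.

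Agr2 belongs to the folding machinery of secretory cells. Of 27 other genes of protein folding and secretion in the endoplasmic reticulum, 25 were tested, with 8 lower, 7 higher, none by 2-fold, and a median log2 fold change of -0.01. These counts are near the shares of all genes tested, 26.6% lower and 27.2% higher. Calr, a calcium-binding chaperone, was 1.59-fold lower, Atf6, a stress sensor, 1.32-fold lower and Ssr1, a subunit of the translocon-associated complex, 1.24-fold higher (limma, adjusted p from 1.30e-06 to 8.06e-05). With each library centred on its median, 3 rather than 7 were higher, while over all genes tested 3375 rather than 4275 were higher.

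**Figure D4:**
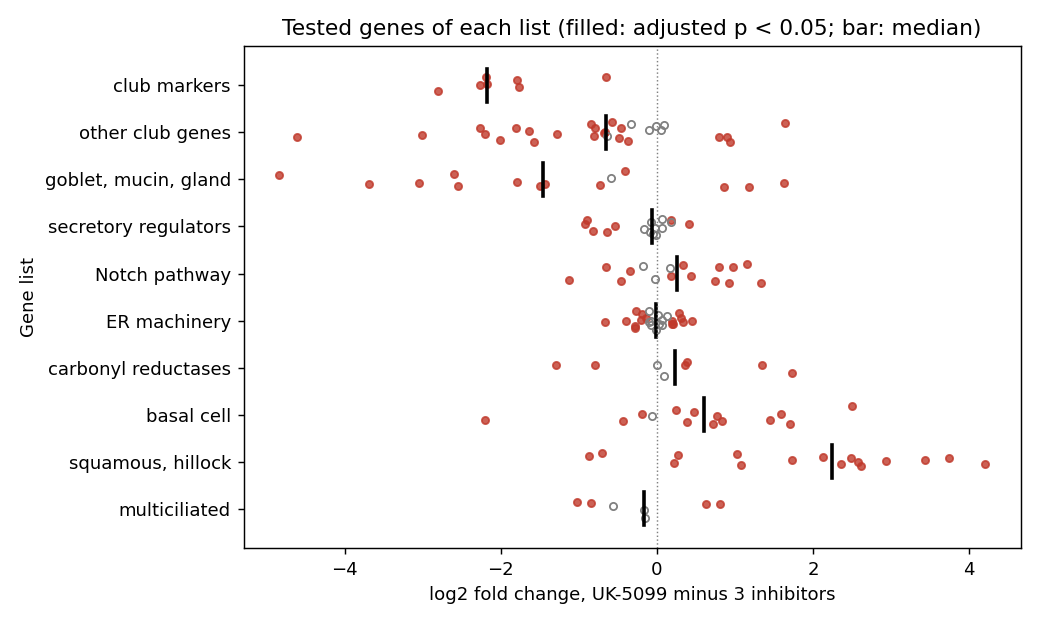
Log2 fold change (UK-5099 minus 3 inhibitors) of the tested genes of 10 lists; each point is a gene, filled where its adjusted p was under 0.05, and black bars are medians. The club markers and the goblet, mucin and gland genes have medians of -2.17 and -1.46, the regulators and the endoplasmic reticulum (ER) machinery lie around 0, and basal and squamous genes have medians of 0.60 and 2.24.

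Markers of the other cells that such cultures could hold moved beside the club markers. Of all genes tested, 26.6% were lower and 27.2% higher, and 5.48% were lower and 4.67% higher by at least 2-fold. Counts from lists with few genes tested say little beside those shares. Of 14 basal cell genes 10 were higher and 3 lower, and their summed level ranged from 366659 to 391250 normalized counts with UK-5099 and from 191261 to 207965 with the 3 inhibitors. Most of that difference came from Krt5, Krt14 and Krt17, and Krt15 did not pass the test. The lower genes, named after their values were seen, were Ngfr (4.59-fold), Aqp3 (1.35-fold) and Cav1 (1.15-fold). All 16 genes of squamous and hillock cells were tested and 14 were higher, 12 of them by at least 2-fold, with sums of 337400 to 357191 against 156665 to 163335. Of 20 multiciliated cell genes only 7 were tested, 2 higher and 2 lower, with sums of 268 to 300 and 241 to 299, and Foxj1, their master regulator, was at 0.339 ± 0.587 and 3.23 ± 2.16. The call of Rsph9, a lower gene of that list (log2 fold change -1.03), ended without 3-inhibitor replicate 1 (limma, adjusted p = 0.0646; the alternatives spanned 0.00477 to 0.0646), which left 0 lower genes there, and 1 was left without UK-5099 replicate 1. Of 10 alveolar genes 3 were tested: Abca3, a lipid transporter, was 2.12-fold lower, Hopx, a homeodomain protein, 2.17-fold higher, and Ager did not pass the test. The surfactant gene Sftpc had no read in any library, whereas Sftpb was at 1.46 ± 0.85 and 9.53 ± 3.62 normalized counts, without overlap. The alveolar genes summed to 15563 to 17019 against 8292 to 8625. Hopx was the only gene of the list called higher, so this sum does not describe the list as a whole. Of 12 leukocyte genes 3 were tested, and Cd74, the invariant chain, was 3.74-fold lower, at 6.60 ± 1.32 against 27.7 ± 6.64 normalized counts (limma, adjusted p = 0.000479). Below the minimum, Csf1r was at 0 in every UK-5099 library and 6.98 ± 4.47 with the 3 inhibitors, Cd79a at 0 and 5.39 ± 3.90, and Lyz2 at 0.309 ± 0.536 and 13.7 ± 6.06, all without overlap. Ptprc, the pan-leukocyte gene, was at 0.339 ± 0.587 and 0.642 ± 0.560, and Adgre1 and Tyrobp had no read. The leukocyte genes summed to 1057 to 1274 with UK-5099 and 973 to 1084 with the 3 inhibitors, mostly from Cd68 and Ly6c2, which did not pass the test. Without UK-5099 replicate 2 or 3, 1 leukocyte gene was called higher. Ager, Sftpb, Csf1r, Cd79a, Lyz2, Adgre1, Tyrobp, Cd68 and Ly6c2 were named after their values were seen. Of 8 endothelial genes 2, Tie1 and Vwf, were tested and both were lower, with sums of 51.8 to 65.9 against 157.3 to 188.6 normalized counts. Cdh5, Emcn and Cldn5 of that list, named after their values were seen, had no read. Of 10 fibroblast genes only Fbln1 was tested, and it was higher (log2 fold change 0.67). The fibroblast genes summed to 413.9 to 502.9 against 281.4 to 313.3 normalized counts. Of 10 muscle and cartilage genes 2 were tested. Col2a1 was higher by at least 2-fold and the other did not pass the test, with sums of 137.4 to 193.6 against 159.0 to 176.0. The part of basal, squamous, alveolar, leukocyte, endothelial, fibroblast, muscle and cartilage gene levels in the club marker differences was not tested.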

How the data were processed

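Mouse tracheal basal cells were profiled by RNA sequencing, with 3 libraries per condition. Per the submitters' processing notes, the tools were HISAT2 2.1.0 and DESeq2 1.36.0 and the build GRCm39, with no roles stated. How reads were counted, and on which annotation, is not given in the sources used here. Per the file headers, the deposited values are in a unit other than counts: the authors' log2 of gene counts, already scaled by 1 factor for each library, in which a text mark stands for 0.

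Values were raised back from log2. Of 57107 entries, 359 repeated an identifier with the same values and were dropped, leaving 56748 genes. Each library's values were whole multiples of the worth of 1 read (within 0.02 of a whole number for 99.988% to 99.992% of nonzero values), so reads were recovered. Genes whose mean reached 10 normalized counts were tested on log2(normalized count + 1) with limma 3.58.1 in R 4.3.3 (eBayes with a trend, two-sided, no covariates), with Benjamini-Hochberg adjustment over 15704 genes at 0.05. Fold changes are on that scale and understate changes of scarce genes. This is the fit planned for values that are not plain counts. The fit was also run on simulated counts, with far fewer changed genes than were called here and the same dispersion for every gene. That run does not show how the fit performs on these data. Precision is limited by 3 libraries a group and by reads for scarce genes, and values cover counting error only where reads are given.

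The markers and gene lists were chosen with earlier results of these data known. All 9 markers are named, up to 3 called genes of every other list by smallest adjusted p, a set of regulators and cell markers whatever their result, and the 2 genes nearest in pattern to each tested marker; other names are said to be chosen after their values were seen. Lists are described by counts and medians, without a set test. Alternatives were other scalings, filters, pseudocounts, variance models, thresholds, the replicate block, limma-voom on the recovered reads, and each library left out. Tables and plots were made in Python 3.11.15 (pandas 2.3.3, matplotlib 3.10.9).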

Additional observations from a re-analysis of the deposited data

How the results depend on the processing

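All 7 tested markers stayed lower and called in every alternative that tested them, with one exception: Msln does not reach a change of at least 2-fold (log2 fold change -0.65), which leaves 6 markers called lower at that requirement. At a minimum mean of 50 normalized counts Agr2 and Pigr were not tested and 5 were called. Across the alternatives the log2 fold change ran from -2.90 to -2.75 for Cbr2, from -2.33 to -2.08 for Scgb1a1, from -2.54 to -2.01 for Pigr, from -2.41 to -1.92 for Agr2 and from -0.74 to -0.59 for Msln. With the 2-fold requirement the whole table had 1593 calls, 860 of them lower, against 8449 and 4174, and the other club cell genes had 9 lower and 1 higher. Of all calls 50.6% were higher, or 39.1% with each library centred on its median, which moved the median of all genes by -0.09 on the log2 scale. Leaving out single libraries gave between 7336 and 9146 calls over the table and 7 lower markers each time. Same-numbered libraries did not deviate together (correlations of -0.02, 0.12 and -0.09), and only UK-5099 replicate 2 correlated best with its own number, so the numbers are not taken as pairs. With the replicate block 8423 genes and 7 markers were called. The share of counts from the 9 markers ranged from 0.109% to 0.118% with UK-5099 and from 0.330% to 0.331% with the 3 inhibitors as libraries were left out. For Scgb3a1 and Scgb3a2, reads are too few to show a difference.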

Other observations

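Within the list of other club cell genes, 4 genes were picked after their values were seen, of which Sftpd and Hp encode secreted proteins. Sftpd, the surfactant protein D gene, stood at 26.4, 12.1 and 9.74 normalized counts with UK-5099 and at 424.7, 357.5 and 365.4 with the 3 inhibitors, a 24.4-fold lower level (limma, adjusted p = 1.50e-07). Hp, which encodes haptoglobin, was at 36.6, 35.3 and 18.3 against 244.3, 235.9 and 234.8. Aldh1a1, an aldehyde dehydrogenase often listed with club cells, was at 2097 ± 61.4 and 1977 ± 88.3 normalized counts and did not pass the test (limma, adjusted p = 0.158). Krt19, a keratin of luminal cells, was at 58051 ± 2644 and 58355 ± 1720 normalized counts and did not pass the test (limma, adjusted p = 0.908).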
